A study of Mus musculus with 32 samples.

Results

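The strain-by-loading interaction describes how far DBA/2 macrophages differed from AKR macrophages in their response to cholesterol loading at the higher dose of the study. It was computed as the DBA/2 response (loaded minus unloaded) minus the AKR response, from the 16 arrays of experiment 1 out of the 32 arrays in the series. The groups were DBA/2 loaded, DBA/2 unloaded, AKR loaded and AKR unloaded, with 4 arrays each. Loaded cells had received acetylated low density lipoprotein (AcLDL) at 100 µg/ml for 24 h, and unloaded cells had received none. All cells were bone marrow derived macrophages grown with conditioned medium of L-cells as the source of M-CSF, and all came from apoE-deficient mice aged 16 weeks and labelled female. Both strains therefore carried the same Apoe deletion, no wild type was included, and the macrophages were a culture model of foam cells. The replicates were cultures that the methods do not tie to separate mice, so p-values measure the spread between cultures.

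Macrophages take up AcLDL through scavenger receptors, break it down in lysosomes, and store the released cholesterol as esters in lipid droplets. Cholesterol that is not stored or exported can disturb the membrane of the endoplasmic reticulum and engage stress signalling. Sterol derivatives in loaded cells engage the LXR nuclear receptors, which drive export and lipid synthesis genes. An interaction is a difference between 2 differences. A gene can show one because it moved in 1 strain, because it moved in both by different amounts, or because it moved in opposite directions.

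Values were log2 intensities on Illumina bead arrays, where a difference of 1 log2 unit is a 2-fold difference. They ran between 4.88 and 14.41 with a median of 5.98 over all 24613 probes, and probes near that median were close to background. Every array correlated best with its own group (mean r of 0.993 to 0.995, against at most 0.99 with another group). Among the 10 macrophage markers chosen for the check, 7 had a probe and all 7 were above background, including Adgre1 (F4/80; 11.90 to 13.53) and Lyz2 (lysozyme; 14.20 to 14.41). Apoe was read at 7.97 to 8.39 on all arrays, and no wild type sample shows whether this probe reports the deletion. Defining markers of T cells (Cd3e, Cd3g), B cells (Cd79a, Pax5), granulocyte precursors (Elane, Mpo, Ngp), conventional dendritic cells (Flt3, Clec9a) and fibroblasts (Col1a1, Col3a1) were at or below the median in every group. Other listed markers on the array passed the median in at least 1 group. They were 3 of 10 for T and NK cells, 4 of 8 for B cells and 5 of 12 for neutrophils. Dendritic cells had 5 of 10 and stromal cells 4 of 12. Over all arrays Blnk (B cell) read 8.44 to 9.53, Bst2 (dendritic cell) 11.94 to 13.09 and Acta2 (stromal cell) 7.31 to 8.34. S100a8, Lcn2 and Dcn are described below.

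Loading acted on the 2 strains to a different extent. Of 13339 probes kept after filtering on signal, 1980 (14.8%) passed the interaction test at an adjusted p under 0.01, 947 of them positive and 1033 negative. Read by gene, with the brightest probe standing for each, 1473 of 9312 genes (15.8%) passed, 709 of them positive (7.61%) and 764 negative (8.2%). A positive value means that loading shifted the gene upwards in DBA/2 cells relative to AKR cells. In DBA/2 cells 598 genes rose with loading (6.42%) and 596 fell (6.4%). In AKR cells 1513 genes rose (16.2%) and 1405 fell (15.1%). The standard deviation of the response over all genes was 0.225 log2 in DBA/2 cells and 0.361 log2 in AKR cells, and the correlation of the responses across the 9312 genes, which are not independent replicates, was 0.489. The arrays measured RNA of whole cultures, so fewer cells of a type and less RNA per cell cannot be told apart for any gene below. Array signal was also quantile-normalised, so a shift in total signal between groups cannot be seen.

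Most of the genes with an interaction responded in AKR cells and not detectably in DBA/2 cells. Loading passed the test in AKR cells alone for 958 of the 1473 genes (65%), 545 rising and 413 falling. It passed in DBA/2 cells alone for 157 genes (10.7%), 101 rising and 56 falling. Both strains passed in opposite directions for 70 genes (4.75%), with 24 higher and 46 lower in loaded AKR cells. Both passed in the same direction for 194 genes (13.2%), of which 180 moved further in AKR cells and 14 moved further in DBA/2 cells. For the remaining 94 genes neither strain passed, and their responses differed in sign in each case. Failing the test in 1 strain does not show that this strain did not respond, so the 95% confidence interval was also read. The DBA/2 response lay within 0.3 log2 of zero for 601 of the 958 genes, and the AKR response for 106 of the 157 genes. In 28 of the 958 and 10 of the 157 genes the other strain was at or below the median of the table in both states, where a response could hardly be measured.

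**Figure D1:**
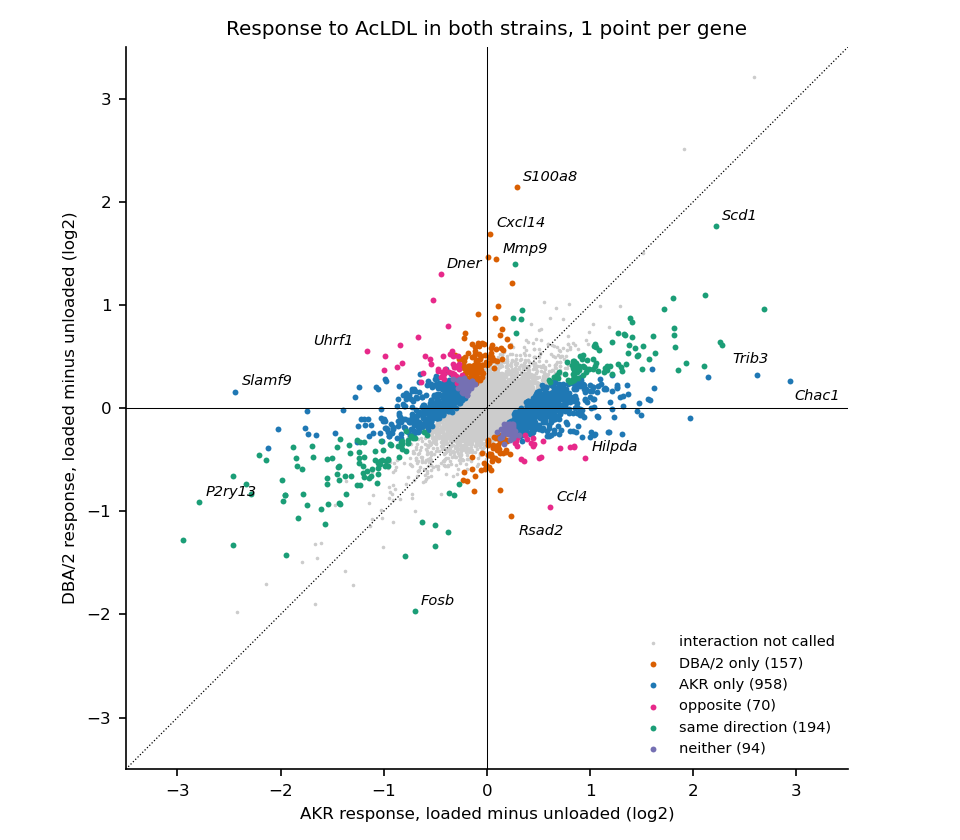
Response of each of 9312 genes to AcLDL at 100 µg/ml (loaded minus unloaded, log2) in DBA/2 macrophages (vertical axis) and AKR macrophages (horizontal axis). Coloured points are the 1473 genes with an interaction, by class, and grey points are all other genes; the dotted line marks equal responses. The 958 genes called in AKR cells alone spread along the horizontal axis, and the 157 called in DBA/2 cells alone along the vertical axis.

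Chac1, an enzyme that degrades glutathione, had the lowest interaction value among genes that rose in AKR cells alone. Its log2 intensity was 6.37, 6.46, 6.20 and 6.16 in DBA/2 loaded cells, 6.17, 6.08, 5.87 and 6.04 in DBA/2 unloaded cells, 8.84, 8.65, 8.61 and 8.81 in AKR loaded cells, and 6.12, 5.74, 5.78 and 5.51 in AKR unloaded cells. The 4 loaded AKR arrays stood clear of the other 12, which lay near background. The response was 0.26 in DBA/2 cells (adjusted p = 0.0704) and 2.94 in AKR cells (adjusted p = 9.52e-17), and the interaction was -2.68 ± 0.14 (SE, adjusted p = 5.04e-12).

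Trib3, a pseudokinase that binds AKT, was next in this class, with an interaction of -2.30 ± 0.13 (SE) and a response of 0.32 in DBA/2 cells and 2.62 in AKR cells on its brightest probe, and interactions as small as -0.98 on its 2 other probes. Vwf, the adhesion protein that binds platelets, changed its order between the strains. It averaged 8.18 ± 0.17 in DBA/2 loaded cells and 8.28 ± 0.12 in DBA/2 unloaded cells, and 9.22 ± 0.05 in AKR loaded cells and 7.24 ± 0.15 in AKR unloaded cells (SD, n = 4 each). DBA/2 cells were thus 1.04 log2 below AKR cells after loading and 1.04 log2 above them before it. Il7r, the interleukin 7 receptor chain, converged instead. The DBA/2 minus AKR difference was 0.27 in loaded cells (adjusted p = 0.0136) and 2.11 in unloaded cells (adjusted p = 3.90e-16).

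Genes of the ATF4 and CHOP stress axis rose together in AKR cells. ATF4 is translated when eIF2α is phosphorylated on amino acid shortage or endoplasmic reticulum stress, and it switches on CHOP (Ddit3), TRIB3, CHAC1 and asparagine synthetase. Of 26 listed genes 21 were kept, and 16 of the 21 had an interaction, all 16 negative, against 15.8% of all genes. The median response of the 21 was 0.09 in DBA/2 cells and 0.57 in AKR cells, against 0.01 in each strain over all genes. Loading raised 5 members and lowered 4 in DBA/2 cells, and raised 18 and lowered 1 in AKR cells. Over all genes it raised 6.42% and lowered 6.4% in DBA/2 cells, and raised 16.2% and lowered 15.1% in AKR cells. Gadd45a, a DNA damage and stress response protein, rose in both strains, by 0.37 in DBA/2 cells and by 1.85 in AKR cells, with an interaction of -1.47 ± 0.095 (SE, adjusted p = 7.48e-11). Asns, asparagine synthetase, had responses of 0.44 and 1.93 in DBA/2 and AKR cells and an interaction of -1.48 ± 0.11 (SE) on its brighter probe, and of -0.20 on its other probe. Ppp1r15a (GADD34), which returns eIF2α to its unphosphorylated state, fell by 0.37 in DBA/2 cells and rose by 0.84 in AKR cells. Atf4 and Ddit3 themselves, picked out here because the list bears their names, had responses of 0.09 and 0.01 in DBA/2 cells, and of 0.95 and 1.04 in AKR cells, and interactions of -0.86 and -1.04. Eif4ebp1, a repressor of translation, was the member nearest to the threshold among those that missed it (interaction -0.34, adjusted p = 0.0134).

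The stretches below, read from RefSeq promoters (GRCm38.p6), hold the letters TGATGNAA on either strand, the core of the composite C/EBP and ATF site of amino acid response genes. They are shown because most members of this list rose in AKR cells, and the capitals mark the match. Of 19 kept members with a promoter in the table, 6 held the letters within 250 bases before the start, as did 2.66% of the 7595 kept genes with a promoter and 3.91% of all 27025 genes in the table. Among the 15 members with both a promoter and an interaction, 5 held them (Chac1, Atf3, Nupr1, Herpud1 and Asns). Herpud1, also counted with the chaperones below, did not rise in AKR cells (response -0.03) and fell by 0.53 in DBA/2 cells. The same letters were sought in 2 lists of amino acid genes described below. They were held by 2 of 14 kept amino acid transporters with a promoter, and by 0 of the 6 with an interaction. Among aminoacyl-tRNA synthetases 3 of 10 held them, and 2 of the 4 with an interaction. A match is a description of the letters and does not show that a factor bound there.
Chac1 (chr2:119351009-119351096, plus strand): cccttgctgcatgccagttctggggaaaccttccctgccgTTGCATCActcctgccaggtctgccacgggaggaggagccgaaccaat
Asns (chr6:7693210-7693272, minus strand): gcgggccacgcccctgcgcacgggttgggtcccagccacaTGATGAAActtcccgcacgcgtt
Atf3 (chr1:191183396-191183483, minus strand): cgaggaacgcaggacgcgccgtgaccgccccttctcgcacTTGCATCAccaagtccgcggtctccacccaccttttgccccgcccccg
Counted from the start of the transcript, the match began at -193 in Chac1, -23 in Asns and -110 in Atf3.

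Genes of amino acid supply that had an interaction were mostly negative. Among 19 kept amino acid transporters 7 had an interaction (36.8%, beside 15.8% of all genes), 6 of them negative, and over all 19 the sign was positive in 9 and negative in 10. For the transporters the medians were 0.10 in DBA/2 cells and 0.28 in AKR cells. Slc6a9, a glycine transporter, had a response of 0.05 in DBA/2 cells and rose by 1.47 in AKR cells. Slc7a5, the light chain of the leucine transporter LAT1, had a response of 0.20 in DBA/2 cells and rose by 1.03 in AKR cells. Of 13 kept cytosolic aminoacyl-tRNA synthetases and their partner proteins, 6 had an interaction (46.2%), all 6 negative. Aars, the alanyl-tRNA synthetase, rose by 0.25 in DBA/2 cells and by 0.81 in AKR cells. Among 10 kept enzymes of asparagine, serine and one-carbon metabolism 4 had an interaction (40%), 3 of them negative, and 2 did under the stricter filter on signal. Asns, named above, is counted in this list too. Mthfd2, a mitochondrial folate enzyme, had a response of 0.28 in DBA/2 cells (adjusted p = 0.0106) and rose by 1.10 in AKR cells.

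Among 20 kept chaperones and folding enzymes of the endoplasmic reticulum 4 had an interaction (20%, near the 15.8% of all genes), 3 of them positive, and the medians were 0.11 in DBA/2 cells and 0.00 in AKR cells. Leaving out loaded AKR replicate 3 or 4 gave 2 in place of 4. Pdia6, a protein disulfide isomerase, rose by 0.48 in DBA/2 cells, against a response of -0.07 in AKR cells. Its relative Pdia3 had a response of 0.24 in DBA/2 cells (adjusted p = 0.0168) and fell by 0.30 in AKR cells. Herpud1, a component of endoplasmic reticulum associated degradation, fell by 0.53 in DBA/2 cells, against a response of -0.03 in AKR cells. Hspa5 (BiP), the main chaperone of the compartment, rose by 0.41 in DBA/2 cells with a response of 0.07 in AKR cells, and its interaction of 0.34 missed the threshold (adjusted p = 0.0726).

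Of 16 kept BCL2 family genes, which govern survival, 6 had an interaction (37.5%, beside 15.8% of all genes), all 6 negative. Mcl1, an anti-apoptotic member, had a response of -0.21 in DBA/2 cells and rose by 0.53 in AKR cells, and Bcl2 had responses of 0.02 and 0.67 in DBA/2 and AKR cells. Bcl2a1b rose by 0.69 and 1.41 in DBA/2 and AKR cells, although probes of the near-identical Bcl2a1 copies may share signal. Among 22 kept immediate early and AP-1 genes 9 had an interaction (40.9%, beside 15.8% of all genes), 8 of them negative. Negative calls made up 8.2% of all genes. Loading raised 3 and lowered 10 of the 22 in DBA/2 cells, and raised 8 and lowered 8 in AKR cells. Over all genes it raised 6.42% and lowered 6.4% in DBA/2 cells, and raised 16.2% and lowered 15.1% in AKR cells. Jun had a response of -0.08 in DBA/2 cells and rose by 1.07 in AKR cells. Fosb fell in both strains, by 1.97 in DBA/2 cells and by 0.70 in AKR cells.

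**Figure D2:**
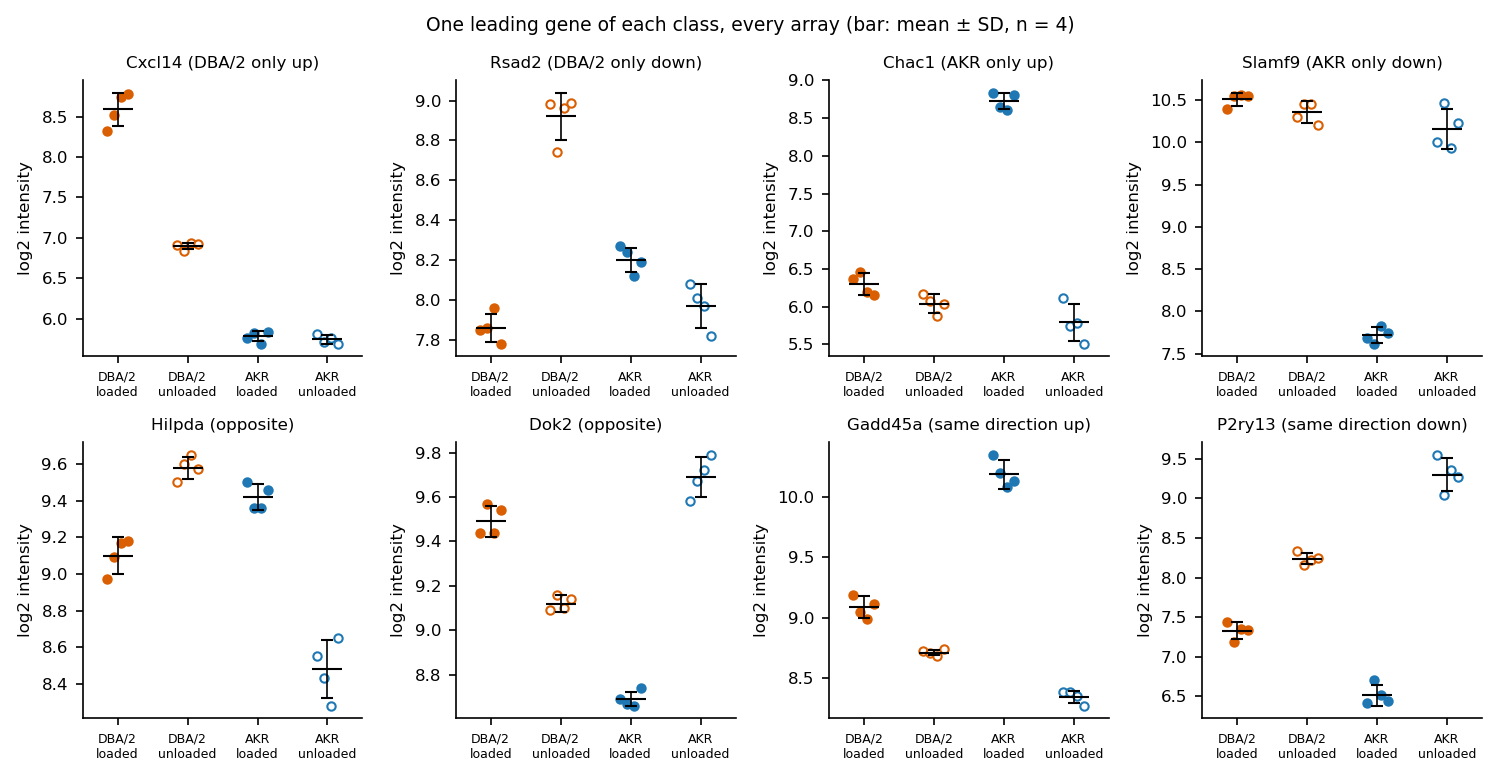
Log2 intensity on every array for 8 genes, chosen to show the classes (filled points loaded, open points unloaded, orange DBA/2, blue AKR; black bars are mean ± SD, n = 4). Chac1 is high on the 4 loaded AKR arrays alone (8.61 to 8.84), Slamf9 is low on those 4 alone (7.62 to 7.83), and Cxcl14 is highest on the 4 loaded DBA/2 arrays (8.32 to 8.78).

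Slamf9, a cell surface receptor of the SLAM family, had the highest interaction value of all genes that fell in AKR cells alone. It read 10.40, 10.55, 10.56 and 10.55 in DBA/2 loaded cells, 10.30, 10.46, 10.46 and 10.21 in DBA/2 unloaded cells, 7.69, 7.62, 7.83 and 7.75 in AKR loaded cells, and 10.01, 10.47, 9.93 and 10.23 in AKR unloaded cells. The strains overlapped before loading and were separated by more than 2 log2 after it. The response was 0.16 in DBA/2 cells (adjusted p = 0.245) and -2.44 in AKR cells, and the interaction was 2.6 ± 0.13 (SE, adjusted p = 2.85e-12). Gja1 (connexin 43), a gap junction protein, averaged 10.70 ± 0.09 in DBA/2 loaded cells and 10.90 ± 0.10 in DBA/2 unloaded cells, and 8.70 ± 0.13 in AKR loaded cells and 10.73 ± 0.10 in AKR unloaded cells (SD, n = 4 each). Tgfbi, a secreted matrix protein, had responses of -0.02 and -1.40 in DBA/2 and AKR cells, and both of its probes gave like interactions (1.34 and 1.37). Serpinb8, an intracellular serine protease inhibitor, had a response of -0.25 in DBA/2 cells (adjusted p = 0.0153) and fell by 1.73 in AKR cells. Serpinb8 averaged 6.34 and 6.59 in DBA/2 loaded and unloaded cells, near background, so a fall there may be understated. Its DBA/2 minus AKR difference was -1.37 in loaded cells and -2.85 in unloaded cells, so the strains came closer.

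DNA replication genes fell in AKR cells, and some rose in DBA/2 cells. These genes encode the MCM helicase, its loading factors, the polymerases and the enzymes that make deoxynucleotides, and their transcription is driven by E2F factors before S phase. Of 34 listed genes 28 were kept, and 18 of the 28 had an interaction (64.3%, beside 15.8% of all genes), all 18 positive. The median response was 0.18 in DBA/2 cells and -0.39 in AKR cells. Loading raised 7 members and lowered 0 in DBA/2 cells, and raised 1 and lowered 17 in AKR cells. The shares of all genes raised and lowered were 6.42% and 6.4% in DBA/2 cells, and 16.2% and 15.1% in AKR cells. Uhrf1, which carries DNA methylation through replication, passed in opposite directions. It read 8.68, 8.67, 8.70 and 8.42 in DBA/2 loaded cells, 8.15, 7.89, 8.25 and 8.0 in DBA/2 unloaded cells, 8.14, 8.38, 8.04 and 8.02 in AKR loaded cells, and 9.50, 9.16, 9.20 and 9.37 in AKR unloaded cells. Unloaded AKR cells were thus highest, and the order of the strains turned with loading (DBA/2 minus AKR 0.47 in loaded cells and -1.23 in unloaded cells). Mcm5 of the helicase had responses of 0.28 and -0.99 in DBA/2 and AKR cells, and Tk1, thymidine kinase, of 0.26 and -0.98. Pole, the leading strand polymerase, missed the threshold (interaction 0.44, adjusted p = 0.0114).

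The letters GCGGGAA, a common form of the E2F site, were sought on both strands of the same promoters. Of 26 kept replication genes with a promoter 7 held them, as did 7.76% of the kept genes and 4.38% of all genes in the table, and 5 of the 17 with an interaction held them (Mcm7, Cdc6, Prim1, Uhrf1 and Chaf1a). The stretch of Uhrf1, a gene that moved in opposite directions, is shown with the match in capitals, beginning at -48.
Uhrf1 (chr17:56303249-56303335, plus strand): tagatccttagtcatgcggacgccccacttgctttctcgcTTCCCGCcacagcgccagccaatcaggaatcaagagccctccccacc

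Genes of mitosis fell in AKR cells with less change in DBA/2 cells. Of 32 listed genes 18 were kept and 8 had an interaction (44.4%, beside 15.8% of all genes), 7 of them positive. Loading raised 0 and lowered 2 of the 18 in DBA/2 cells, and raised 0 and lowered 12 in AKR cells, with medians of -0.05 and -0.44. Falls were called for 6.4% of all genes in DBA/2 cells and for 15.1% in AKR cells. Prc1, a spindle midzone protein, had responses of -0.10 in DBA/2 cells and -1.03 in AKR cells. Cdk1, the kinase that starts mitosis, had responses of 0.02 and -0.87. Aurkb fell in both strains, by 0.32 in DBA/2 cells and by 1.03 in AKR cells. The count for this list was 4 in place of 8 under a stricter filter on signal.

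**Figure D3:**
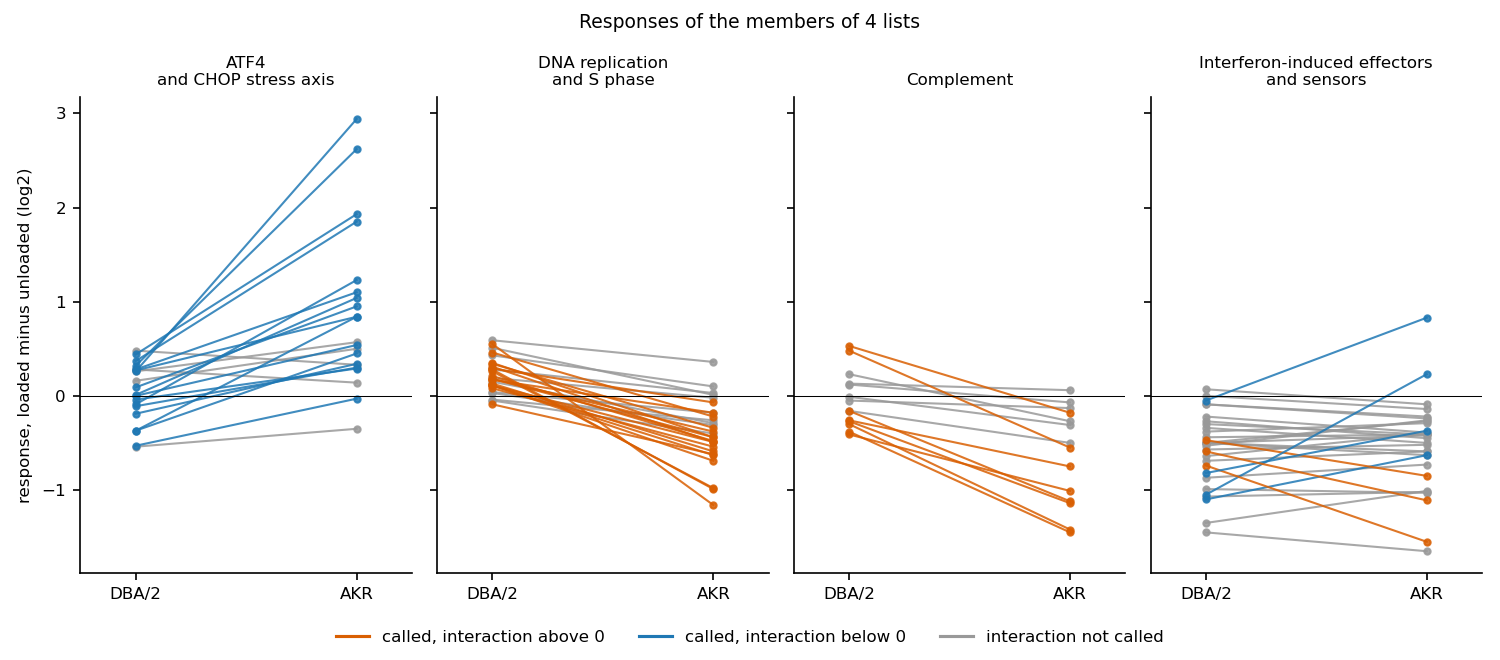
Response to loading (log2) of each kept member of 4 lists, with DBA/2 on the left and AKR on the right of each panel. Orange and blue lines are members with an interaction above and below 0, and grey lines are the rest: the 16 called stress axis genes lean upwards to AKR, the 18 called replication genes and the 8 called complement genes lean downwards, and most interferon genes lie below 0 in both strains.

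Receptors and soluble factors of innate recognition were lower in loaded AKR cells. Of 20 listed complement genes 14 were kept, and 8 had an interaction (57.1%, beside 15.8% of all genes), all 8 positive. The complement medians were -0.10 in DBA/2 cells and -0.52 in AKR cells. C1qa, a chain of the C1q recognition molecule, read 9.74, 9.43, 9.72 and 9.86 in DBA/2 loaded cells, 10.08, 9.94, 9.97 and 9.97 in DBA/2 unloaded cells, 9.32, 9.26, 9.36 and 9.28 in AKR loaded cells, and 10.64, 10.77, 10.70 and 10.79 in AKR unloaded cells. AKR cells were above DBA/2 cells before loading and below them after it. C1qb had responses of -0.16 in DBA/2 cells and -1.12 in AKR cells. Itgam (CD11b), the alpha chain of complement receptor 3, rose by 0.48 in DBA/2 cells and fell by 0.55 in AKR cells. C3ar1, the C3a receptor, missed the threshold (interaction 0.51, adjusted p = 0.012).

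Other receptor families leaned the same way. Of 15 kept C-type lectin receptors 9 had an interaction (60%, beside 15.8% of all genes), 8 of them positive. The lectin medians were -0.30 in DBA/2 cells and -0.71 in AKR cells. Clec4a1 had responses of -0.19 and -1.76 in DBA/2 and AKR cells, and Clec4a3 of -1.33 and -2.46. Clec4e (Mincle), a receptor for mycobacterial glycolipid, was the exception, with a fall of 0.38 in DBA/2 cells and a rise of 0.84 in AKR cells. Of 22 kept Toll-like receptor genes and adaptors 10 had an interaction (45.5%), 8 of them positive. Irak3, an inhibitor of Toll-like receptor signalling, had responses of 0.11 and -1.28 in DBA/2 and AKR cells, and Cd14, the co-receptor for endotoxin, of 0.26 and -0.57. The count of 10 became 6 when loaded AKR replicate 4, loaded DBA/2 replicate 1 or loaded DBA/2 replicate 3 was left out. Of 8 kept Fc receptors 4 had an interaction (50%), all 4 positive. Fcgr1 was among them, with responses of 0.15 in DBA/2 cells and -0.78 in AKR cells.

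Some of these receptors also serve as macrophage markers. Of the 7 markers on the array 4 had an interaction (57.1%, beside 15.8% of all genes), all 4 positive. Itgam, Fcgr1 and Cd14 were already counted in the lists above, and the other was Adgre1, with responses of -0.17 in DBA/2 cells and -1.25 in AKR cells. Mertk, an uptake receptor, was higher after loading in both strains, with responses of 0.35 in DBA/2 cells and 0.55 in AKR cells. The summed linear intensity of the 7 markers was 41137 to 43101 in DBA/2 loaded cells and 40749 to 43843 in DBA/2 unloaded cells, and 33388 to 35696 in AKR loaded cells and 40582 to 45946 in AKR unloaded cells. The 4 loaded AKR cultures were below all others in this sum, and its part in the results on receptors was not tested. Adgre1 and Cd14, both with an interaction, are terms of this sum, so it is not a measure apart from them. Lyz2, its brightest term, averaged 14.37 in AKR loaded cells and 14.41 in AKR unloaded cells.

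In the SLAM, CD300 and MS4A families the strains diverged in both directions. Of 15 kept members 9 had an interaction (60%, beside 15.8% of all genes), 5 positive and 4 negative. Cd300lf, an inhibitory receptor, had a response of 0.08 in DBA/2 cells and rose by 1.58 in AKR cells. Ms4a6c and Ms4a6b, tetraspanning membrane proteins, fell in both strains, with responses of -0.74 and -0.37 in DBA/2 cells and of -2.34 and -1.70 in AKR cells.

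Cxcl14, a chemokine, had the smallest p among genes that rose in DBA/2 cells alone, where S100a8 had the largest interaction. Its log2 intensity was 8.32, 8.52, 8.74 and 8.78 in DBA/2 loaded cells, 6.91, 6.84, 6.93 and 6.92 in DBA/2 unloaded cells, 5.76, 5.82, 5.69 and 5.83 in AKR loaded cells, and 5.81, 5.71, 5.76 and 5.69 in AKR unloaded cells. All 8 AKR arrays were below the median of the table, so the AKR response of 0.03 is that of a signal at background. The interaction was 1.66 ± 0.11 (SE, adjusted p = 1.44e-10), and the other probe gave 1.58. Upp1, uridine phosphorylase, was expressed in both strains. It averaged 9.11 ± 0.13 in DBA/2 loaded cells and 7.65 ± 0.17 in DBA/2 unloaded cells, and 8.25 ± 0.09 in AKR loaded cells and 8.23 ± 0.14 in AKR unloaded cells (SD, n = 4 each). Ak1, an adenylate kinase, rose by 0.73 in DBA/2 cells, with a response of -0.21 in AKR cells (adjusted p = 0.021).

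S100a8, a calcium-binding protein abundant in granulocytes and monocytes, read 10.09, 10.72, 10.40 and 10.67 in DBA/2 loaded cells, 8.38, 8.42, 8.30 and 8.24 in DBA/2 unloaded cells, 9.04, 8.87, 8.97 and 8.90 in AKR loaded cells, and 8.63, 9.0, 8.43 and 8.54 in AKR unloaded cells. The loaded DBA/2 arrays were above all 12 others, and the interaction was 1.84 ± 0.16 (SE, adjusted p = 7.57e-09). Of the 12 markers of neutrophils and their precursors on the array 5 were above background. Of these 5, 2 had an interaction (40%, beside 15.8% of all genes), S100a8 and Lcn2. Lcn2 (lipocalin 2) rose by 0.34 in DBA/2 cells and fell by 0.62 in AKR cells. S100a9, Elane, Mpo, Ctsg, Ltf, Ngp and Cxcr2 were at or below the median in every group. The summed linear intensity of the 12 markers was 2906 to 3643 in DBA/2 loaded cells and 1803 to 1893 in DBA/2 unloaded cells, and 1544 to 1729 in AKR loaded cells and 1664 to 1898 in AKR unloaded cells. S100a8 and Lcn2 are terms of this sum, so it is not a measure apart from them. The part of the sum in other results was not tested.

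Other marker lists held a few such genes. Mmp9, a matrix metalloproteinase listed with osteoclasts, rose by 1.44 in DBA/2 cells, with a response of 0.09 in AKR cells. Ctsk (cathepsin K) rose by 0.40 in DBA/2 cells and by 1.30 in AKR cells. Of the 10 osteoclast markers on the array 6 passed the median in at least 1 group, with Nfatc1 at 9.04 to 9.91 over all arrays. Acp5, Calcr, Ocstamp and Atp6v0d2 were at or below the median in every group. The summed linear intensity of the 10 was 5046 to 6605 in DBA/2 loaded and 3072 to 3464 in DBA/2 unloaded cells. It was 5800 to 6637 in AKR loaded and 4576 to 5785 in AKR unloaded cells. Mmp9 and Ctsk are terms of this sum, and its part in other results was not tested. Dcn (decorin), listed with stromal cells, rose by 0.99 in DBA/2 cells, while its AKR means of 5.74 and 5.63 were at background. Collagen genes Col1a1, Col1a2 and Col3a1 were at background throughout. In limma's test 0 of the kept markers of T and NK cells (3), B cells (4), dendritic cells (5) or mast and erythroid cells (3) had an interaction, with 1 B cell marker (Cd79b) and 1 dendritic cell marker (Dpp4) at an unadjusted p under 0.05. Without unloaded AKR replicate 3, 1 B cell marker passed.

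Rsad2 (viperin), an antiviral interferon-induced enzyme, led the genes that fell in DBA/2 cells alone. It read 7.85, 7.86, 7.96 and 7.78 in DBA/2 loaded cells, 8.98, 8.74, 8.96 and 8.99 in DBA/2 unloaded cells, 8.27, 8.24, 8.12 and 8.19 in AKR loaded cells, and 8.08, 8.01, 7.97 and 7.82 in AKR unloaded cells. The DBA/2 groups did not overlap, and the response was -1.05 in DBA/2 cells and 0.23 in AKR cells (adjusted p = 0.0107). The interaction was -1.29 ± 0.10 (SE, adjusted p = 1.38e-09). Smaller shifts followed in Arg2, the mitochondrial arginase (-0.79 in DBA/2 cells and 0.13 in AKR cells), in Rasa3, a negative regulator of Ras and Rap (-0.43 and 0.18), and in Mcoln2, an endolysosomal cation channel (-0.40 and 0.12).

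Rsad2 stood apart from most genes of its own list. Of 30 kept interferon-induced effectors 22 fell in DBA/2 cells and 22 fell in AKR cells, with 0 and 1 rising, and medians of -0.50 in DBA/2 cells and -0.43 in AKR cells. For this list and those below, 6.4% of all genes fell in DBA/2 cells and 15.1% in AKR cells. An interaction was found for 7 of the 30 (3 positive, 4 negative), a share of 23.3% beside 15.8% of all genes. Trim25, a ubiquitin ligase of RNA sensing, had a response of -0.05 in DBA/2 cells and was the 1 member that rose in AKR cells, by 0.83. Ifi27l2a had responses of -0.74 and -1.55 in DBA/2 and AKR cells, and Mx2 of -1.10 and -0.63. Among 10 kept GTPases, guanylate-binding proteins and Schlafens 9 fell in DBA/2 cells and 7 in AKR cells, and limma called 0 of the 10 for the interaction, with 2 (Igtp and Slfn1) at an unadjusted p under 0.05 and 1 call without loaded DBA/2 replicate 3. Slfn1 came nearest (-0.37, adjusted p = 0.042). MHC class II genes also fell in both strains, 6 of 11 in DBA/2 cells and 8 of 11 in AKR cells. Cd74, the invariant chain, had responses of -1.12 and -1.57 in DBA/2 and AKR cells, with an interaction of 0.46 (adjusted p = 0.00399). The interaction count for this list was 2 of 11 (18.2%, near the 15.8% of all genes). It became 1 without loaded AKR replicate 1, loaded DBA/2 replicate 3 or unloaded DBA/2 replicate 2, and 4 without loaded DBA/2 replicate 2. Of 21 kept MHC class I genes 2 had an interaction (9.52%, below the 15.8% of all genes), and 1 did when any of 9 single arrays was left out. H2-D1 was 1 of them, with means of 13.87 and 14.23 in DBA/2 loaded and unloaded cells and of 6.51 and 6.50 in AKR loaded and unloaded cells, and whether its probe matches both strains was not tested.

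Hilpda, a lipid droplet protein that inhibits triglyceride breakdown, had the smallest p among genes that moved in opposite directions and rose in AKR cells. It read 8.97, 9.09, 9.17 and 9.18 in DBA/2 loaded cells, 9.50, 9.60, 9.65 and 9.57 in DBA/2 unloaded cells, 9.50, 9.36, 9.36 and 9.46 in AKR loaded cells, and 8.55, 8.43, 8.28 and 8.65 in AKR unloaded cells. Loaded and unloaded arrays did not overlap in either strain. The response was -0.48 in DBA/2 cells and 0.95 in AKR cells, with an interaction of -1.42 ± 0.11 (SE, adjusted p = 6.03e-10). Cd274 (PD-L1), a checkpoint ligand, fell by 0.39 in DBA/2 cells and rose by 0.71 in AKR cells. Ccl4, a chemokine of monocytes and lymphocytes, fell by 0.96 in DBA/2 cells and rose by 0.61 in AKR cells, and its interaction of -1.57 was the largest in size of this class. Ccl3 fell by 0.38 and rose by 0.81, and probes of such close relatives may share signal.

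Dok2, an adaptor that restrains signalling from receptor kinases, had the smallest p among those that rose in DBA/2 cells and fell in AKR cells. It read 9.44, 9.57, 9.44 and 9.54 in DBA/2 loaded cells, 9.09, 9.16, 9.10 and 9.14 in DBA/2 unloaded cells, 8.69, 8.67, 8.66 and 8.74 in AKR loaded cells, and 9.58, 9.67, 9.72 and 9.79 in AKR unloaded cells. The 4 groups did not overlap, and the interaction was 1.37 ± 0.088 (SE, adjusted p = 7.48e-11). Dner, a transmembrane ligand of Notch, rose by 1.30 in DBA/2 cells and fell by 0.45 in AKR cells, with a larger interaction (1.75). Marcksl1, an actin-regulating protein kinase C substrate, rose by 0.50 and fell by 0.99, and its 4 probes gave interactions of 0.87 to 1.49. Zfp661, a zinc finger protein, rose by 0.69 in DBA/2 cells and fell by 0.67 in AKR cells. Of 20 kept chemokines and receptors 9 had an interaction (45%, beside 15.8% of all genes), 3 of them in opposite directions. These 3 were Ccl3, Ccl4 and Pf4 (platelet factor 4), and Pf4 rose by 0.52 in DBA/2 cells and fell by 0.36 in AKR cells.

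Where both strains moved the same way, AKR cells usually moved further. Hyal1, the lysosomal hyaluronidase, rose by 0.64 in DBA/2 cells and by 2.26 in AKR cells, and Spsb4, a SOCS box protein, by 0.41 and 2.10. P2ry13, a receptor for ADP, read 7.44, 7.18, 7.35 and 7.34 in DBA/2 loaded cells, 8.33, 8.16, 8.22 and 8.25 in DBA/2 unloaded cells, 6.41, 6.70, 6.51 and 6.44 in AKR loaded cells, and 9.55, 9.04, 9.36 and 9.27 in AKR unloaded cells. The fall was 0.91 in DBA/2 cells and 2.79 in AKR cells, and the interaction was 1.88 ± 0.13 (SE, adjusted p = 1.31e-10). Ch25h, which makes 25-hydroxycholesterol, had responses of -0.66 and -2.46 in DBA/2 and AKR cells. Of 9 kept purinergic receptors 5 had an interaction (55.6%, beside 15.8% of all genes). P2ry6 and P2ry14 fell in both strains as P2ry13 did, with responses of -0.31 and -0.93 in DBA/2 cells and of -1.26 and -1.54 in AKR cells. Nt5e (CD73), which makes adenosine, rose by 0.61 in DBA/2 cells, with a response of 0.05 in AKR cells. Its AKR means of 5.88 and 5.82 in loaded and unloaded cells were at background, where a response could hardly be measured.

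In sterol handling the share of genes with an interaction was near that of all genes (15.8%). Of 20 kept genes of cholesterol synthesis 2 had an interaction (10%), both positive, and this count ranged between 0 and 4 when single arrays were left out. Tm7sf2, a sterol reductase, was 1 of them, with responses of 0.18 in DBA/2 cells and -0.23 in AKR cells, neither past the threshold. Of 17 kept LXR and sterol export genes 3 had an interaction (17.6%), and the medians were 0.16 in DBA/2 cells and 0.20 in AKR cells. Abcg1, a cholesterol exporter, rose by 0.48 and 0.75 in DBA/2 and AKR cells, and its interaction of -0.27 missed the threshold (adjusted p = 0.0187). Lpl, lipoprotein lipase, had a response of 0.20 in DBA/2 cells and fell by 0.53 in AKR cells.

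In fatty acid synthesis and lipid droplets all genes with an interaction had a negative value. Of 15 kept genes of fatty acid synthesis 5 had an interaction (33.3%, beside 15.8% of all genes), all 5 negative. The count was 3 when unloaded AKR replicate 2 was left out. Scd1, the stearoyl-CoA desaturase, rose by 1.76 in DBA/2 cells and by 2.22 in AKR cells, and Fasn, fatty acid synthase, by 0.87 and 1.39. Of 15 kept lipid droplet genes 4 had an interaction (26.7%), all 4 negative. Of these, 2 passed in AKR cells alone, 1 in opposite directions and 1 in neither strain. The droplet medians were -0.02 in DBA/2 cells and 0.34 in AKR cells. Pnpla2 (ATGL), a triglyceride lipase, had responses of -0.20 and 0.38 in DBA/2 and AKR cells. Of 16 kept PPAR targets and fatty acid oxidation genes 3 had an interaction (18.8%), and 5 did with 50 added to linear values, with a trended and robust variance or with replicates 1 and 2 against 3 and 4 as a block. Fabp5, a fatty acid binding protein, had responses of 0.03 and 0.71. Cd36, a receptor for oxidised lipoprotein and fatty acids, rose by 0.63 in DBA/2 cells, with a response of -0.05 in AKR cells. Its signal was close to background, with means of 6.36 and 5.73 in DBA/2 loaded and unloaded cells. In AKR loaded and unloaded cells the means were 5.94 and 5.99. Marco, a scavenger receptor, had a response of 0.09 in DBA/2 cells and fell by 0.78 in AKR cells.

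Lysosome genes moved in both directions. Of 39 kept hydrolases 11 had an interaction, 5 positive and 6 negative (28.2% beside 15.8% of all genes). Ctsc (cathepsin C) had a response of -0.11 in DBA/2 cells and fell by 1.15 in AKR cells. Naglu, which degrades heparan sulfate, had a response of 0.06 in DBA/2 cells and rose by 0.69 in AKR cells. Of 31 kept membrane proteins and pump subunits 8 had an interaction (25.8%), 6 of them negative. Of the 31, 4 rose in DBA/2 cells against 15 in AKR cells, beside 6.42% and 16.2% of all genes. Tcirg1, a subunit of the proton pump, had a response of 0.22 in DBA/2 cells (adjusted p = 0.04) and rose by 1.26 in AKR cells. Of 26 kept sorting genes 8 had an interaction (30.8%), 4 in each direction. Igf2r, the cation-independent mannose 6-phosphate receptor, rose by 0.61 and 1.38 in DBA/2 and AKR cells.

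Of 29 kept regulators and targets of lysosome biogenesis and autophagy 8 had an interaction (27.6%, beside 15.8% of all genes), 7 of them negative. Loading raised 2 and lowered 2 of the 29 in DBA/2 cells, and raised 9 and lowered 4 in AKR cells, with medians of -0.02 and 0.13. Over all genes it raised 6.42% and lowered 6.4% in DBA/2 cells, and raised 16.2% and lowered 15.1% in AKR cells. The counts in DBA/2 cells and the count of falls in AKR cells were near these shares. Sqstm1 (p62), an autophagy receptor, read 11.54, 11.69, 11.62 and 11.62 in DBA/2 loaded cells, 11.68, 11.80, 11.56 and 11.79 in DBA/2 unloaded cells, 12.51, 12.43, 12.32 and 12.31 in AKR loaded cells, and 11.27, 11.27, 11.35 and 11.37 in AKR unloaded cells. The DBA/2 groups overlapped and the AKR groups did not, and the interaction was -1.17 ± 0.10 (SE, adjusted p = 3.14e-09). Flcn, Rragd and Rragc, which signal from the lysosome to mTORC1 and TFEB, had responses of -0.06, 0.39 and -0.06 in DBA/2 cells, against 0.61, 1.14 and 0.65 in AKR cells. Tfe3, a factor of the same family as TFEB, missed the threshold (interaction 0.33, adjusted p = 0.0156).

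Glycolysis and hypoxia genes rose in both strains. Of 24 kept members 15 rose in DBA/2 cells and 18 rose in AKR cells, and none fell in either. Rises were called for 6.42% of all genes in DBA/2 cells and for 16.2% in AKR cells. An interaction was found for 10 (41.7%, beside 15.8% of all genes), of which 9 were negative. The medians of the list were 0.32 in DBA/2 cells and 0.52 in AKR cells. Hk3, a hexokinase of blood cells, rose by 0.78 and 1.81 in DBA/2 and AKR cells. Hk2 and Pfkfb3, which promote entry into glycolysis, had responses of -0.02 and -0.07 in DBA/2 cells, against 0.74 and 0.60 in AKR cells. Among 31 kept respiratory chain subunits 3 had an interaction (9.68%, beside 15.8% of all genes), and 1 did without loaded AKR replicate 2, unloaded AKR replicate 2 or unloaded DBA/2 replicate 4.

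In the remaining lists the shares stood between 19% and 53.8%, beside 15.8% of all genes. Of 25 kept inflammatory cytokine and NF-kB feedback genes 6 had an interaction (24%), 5 of them negative, with Tnfaip3 (A20) at 0.14 in DBA/2 cells and 1.37 in AKR cells. Of 13 kept genes of arginine metabolism and alternative activation 7 had one (53.8%), 5 of them positive, among them Mrc1, the mannose receptor, with responses of -0.56 and -1.20 in DBA/2 and AKR cells. Of 33 kept integrin, matrix and adhesion genes 10 had one (30.3%), 8 of them positive. Counts were 6 of 23 for NRF2 antioxidant genes (26.1%), 4 of 17 for iron and heme genes (23.5%), 5 of 21 for apoptotic cell uptake (23.8%), 4 of 21 for IRF and STAT factors (19%), 3 of 14 for macrophage lineage factors (21.4%) and 3 of 11 for scavenger receptors (27.3%). Hmox1, heme oxygenase, had responses of 0.16 and 0.68 in DBA/2 and AKR cells, while Sod2, the mitochondrial superoxide dismutase, rose by 0.51 in DBA/2 cells, with -0.02 in AKR cells. Irf5, a factor of macrophage activation, rose by 0.40 in DBA/2 cells, with -0.15 in AKR cells.

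**Figure D4:**
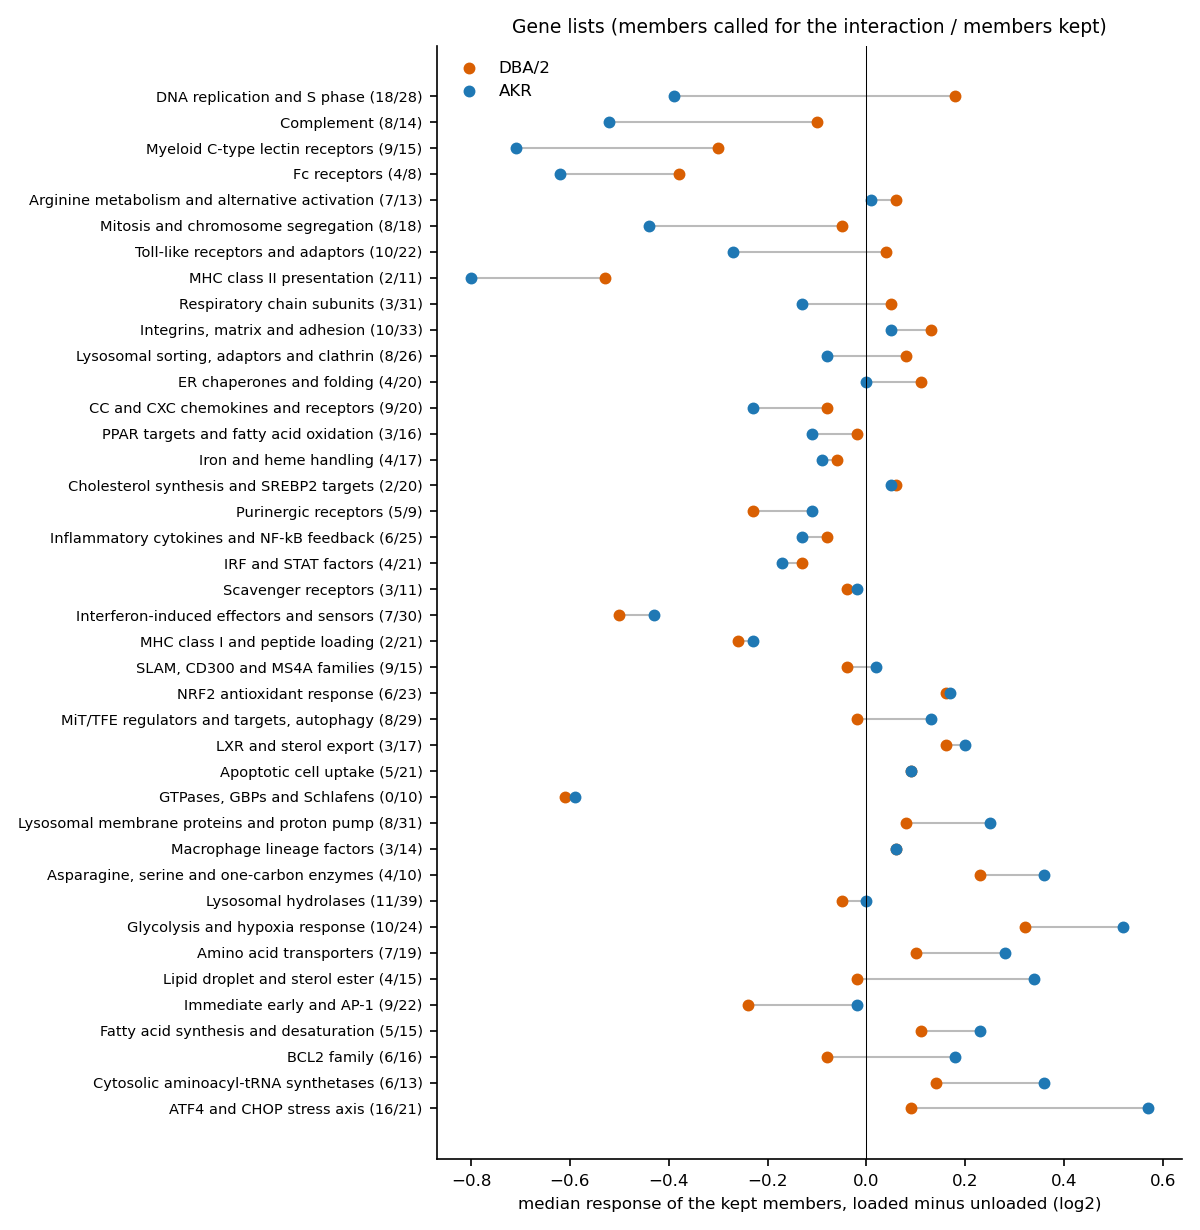
Median response to loading (log2) of the kept members of 40 gene lists in DBA/2 (orange) and AKR (blue) macrophages, ordered by the median interaction, with members called and kept in parentheses. The replication list is at the top (0.18 in DBA/2 and -0.39 in AKR cells), the stress axis at the bottom (0.09 and 0.57), and interferon and GTPase genes are below 0 in both strains.

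Loading changed which genes separated the strains. Over all genes the strain difference passed the test for 2770 (29.7%) in loaded cells and for 2626 (28.2%) in unloaded cells. Among the 1473 genes with an interaction 589 differed between the strains in loaded cells without passing in unloaded cells, and 449 passed in unloaded cells without passing in loaded cells. Both tests passed for 219 with the same sign and for 161 with the opposite sign, as in Uhrf1, C1qa, Hilpda and Dok2. For 55 neither passed. These tests use the same arrays as the interaction and describe it in another form.

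Experiment 2 loaded macrophages labelled male with AcLDL at 50 µg/ml on a later version of the array, so dose, sex, array version and lipoprotein batch cannot be told apart, and no test between the experiments was made. Its AKR unloaded replicate 1 and AKR loaded replicate 2 correlated best with the other AKR group, and values are given without and with them. Leaving out these arrays because of their values favours separated AKR groups. Without them 5.75% of genes had an interaction, and by the labels 0.994% did. Of the 1279 genes with an interaction in experiment 1 that were also kept in experiment 2, 773 (60.4%) had the same sign there without the 2 arrays, beside 53.5% of all 7208 shared genes. By the labels the count was 571 of 1277 (44.7%), beside 47.8% of all genes. The number of genes called in both was 194 without the 2 arrays, 15.2% of those from experiment 1 and 41.1% of those from experiment 2, with 158 of the same sign and 36 of opposite signs. By the labels 33 genes were called in both, 2.58% of those from experiment 1 and 39.8% of those from experiment 2, with 21 of the same sign and 12 of opposite signs.

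Both the stress axis and DNA replication held genes with an interaction in experiment 2. The stress axis had 17 of 24 kept members with an interaction without the 2 arrays, and 2 of 23 by the labels, all negative in each case, with medians of -1.39 and -0.83. DNA replication genes had 21 of 28 and 8 of 28, all positive, with medians of 1.07 and 0.94. Complement had 1 of 13 and 0 of 13, with medians of 0.23 and -0.16. Chac1 had an interaction of -4.94 ± 0.35 (SE, adjusted p = 3.83e-07) without the 2 arrays and of -2.99 ± 1.22 (adjusted p = 0.235) by the labels, and Uhrf1 of 2.61 and 2.16, both past the threshold. Cxcl14 was positive (1.93 and 2.27) and Rsad2 negative (-1.25 and -1.64), each past the threshold in both fits. Upp1 had the opposite sign, with -0.94 (adjusted p = 0.00808) without the 2 arrays and -1.10 (adjusted p = 0.0109) by the labels. Slamf9 also had the opposite sign, with -0.70 and -1.61, and missed the threshold in both fits. So did Vwf, Il7r and P2ry13, with 0.71, 0.66 and -0.29 without the 2 arrays and the same signs by the labels. Dner, with 1.75 in experiment 1, had 0.03 and 0.06. Among shared genes called in AKR cells alone in experiment 1, 501 of 831 kept their sign without the 2 arrays. By the labels 353 of 830 did.

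**Figure D5:**
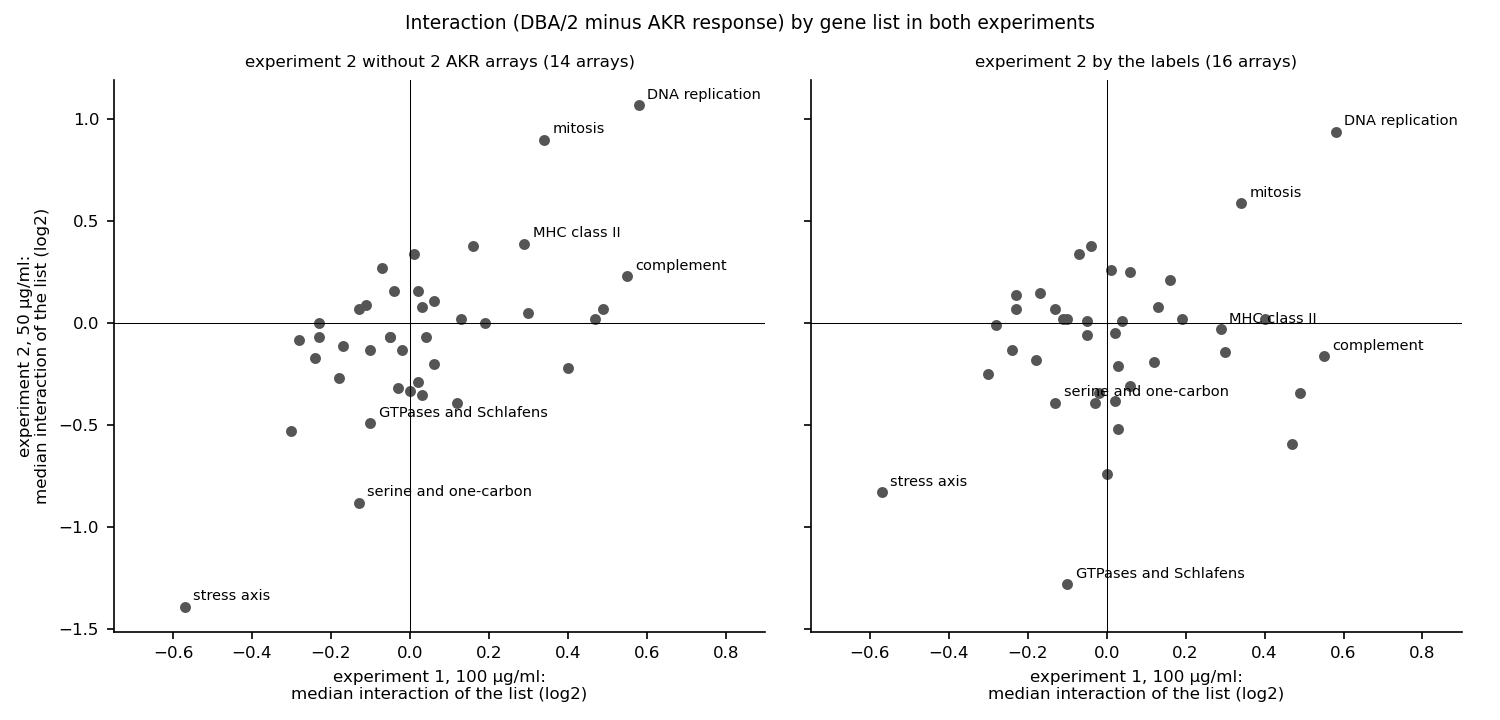
Median interaction (DBA/2 minus AKR response, log2) of 40 gene lists at 50 µg/ml (experiment 2, vertical axis) and at 100 µg/ml (experiment 1, horizontal axis), without 2 AKR arrays of experiment 2 (left) and by the labels (right). DNA replication is at the upper right of both panels (1.07 and 0.94 in experiment 2) and the stress axis at the lower left (-1.39 and -0.83), while GTPases and Schlafens are lowest by the labels (-1.28).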

How the data were processed

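The authors hybridised total RNA to Illumina MouseRef-8 arrays, with 8 arrays to a chip, and deposited quantile-normalised log2 intensities made with lumi 2.6.0 according to the submitters' processing notes. The chip of each array is not given in the sources used here, and neither the authors' removal of probes over strain polymorphisms nor that of undetected probes was repeated. Probes were kept where the highest group mean exceeded the median of the table. Strain, loading and their interaction were fitted over 16 arrays with limma 3.58.1 (R 4.3.3), with Benjamini-Hochberg adjustment over all kept probes and a threshold of 0.01. Of 24613 probes, 20984 had 1 gene symbol, 1 had several and 3628 had none. Each gene was read from its brightest kept probe. Named genes were, for each class, the 4 with the smallest interaction p and probes of 1 sign, and for each list the 4 called members and the 1 member not called with the smallest p. The members, lists and rule were chosen with earlier results of these data known. Classes of response follow the calls in each strain. Promoters came from RefSeq, matched by symbol, and were searched over the 250 bases before each start. The number of arrays limits the precision, with 4 per group. The fit was tested on simulated arrays, where many small interactions were missed. Same-numbered cultures of different groups had correlations of 0.011 to 0.157 in their deviations, over 0.1 in 9 of 24 pairs. The median was 0.082, against -0.042 for other numbers. For different numbers it was 0.060 within replicates 1 and 2 or 3 and 4, and -0.062 across these. Deviations were thus weakly shared by number. The methods put 2 cultures of each group on each chip, and whether the chip explains this was not tested. The main fit held no block, and fits with blocks are given below. Alternatives were other filters, normalisations, variance models, blocks, thresholds and leaving out single arrays.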

Additional observations from a re-analysis of the deposited data

Results flagged for a closer look

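The difference in response between the strains itself was past the threshold for 1980 probes, as described above. Among the kept probes, 1663 had no gene name in the annotation used, and 256 of these (15.4%) had an interaction, close to the share of named probes. Among the 32 genes chosen by class, 7 of 128 groups of 4 arrays held 1 array far from the other 3, and chance flags about 1 in 20 such groups. In DBA/2 loaded cells these were Il7r in replicate 4 (9.49, against 9.77 to 9.79) and Slamf9 in replicate 1 (10.40, against 10.55 to 10.56). In DBA/2 unloaded cells they were Cxcl14 in replicate 2 (6.84, against 6.91 to 6.93) and Rsad2 in replicate 2 (8.74, against 8.96 to 8.99). In AKR loaded cells they were Ak1 in replicate 1 (7.04, against 6.83 to 6.85) and Dner in replicate 2 (6.44, against 6.21 to 6.22). In AKR unloaded cells it was Ccl4 in replicate 4 (11.98, against 11.47 to 11.55). The interaction of each of these 7 genes stayed past the threshold when any single array was left out.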

How the results depend on the processing

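The interaction count of 1980 probes lay between 1528 (no filter on signal) and 2214 (replicates 1 and 2 against 3 and 4 as a block) over the other filters, normalisations, variance models and blocks. At an adjusted p under 0.05 it was 3298 (1629 positive, 1669 negative), with classes of 1975 (AKR only), 452 (DBA/2 only), 249 (opposite), 423 (same direction) and 199 (neither), and 2699 probes called for loading in DBA/2 cells. Requiring an interaction of at least 1 log2 left 164 probes (82 in each direction), with classes of 91, 9, 24, 40 and 0. Without a filter the neither class, 132 probes above, held 83. Leaving out 1 array gave 1672 to 1980 probes (787 to 932 positive, 885 to 1048 negative), 1092 to 1376 AKR only, 163 to 220 DBA/2 only, 74 to 90 opposite, 186 to 218 same direction and 86 to 137 neither. Loading counts were then 1256 to 1684 in DBA/2 cells and 3493 to 4082 in AKR cells, and strain counts 3419 to 3939 in loaded and 3253 to 3857 in unloaded cells. With the replicate number as a block (replicate block) 2118 probes passed, 1933 of them among the 1980. Of the 154 named genes with an interaction, all kept their direction in the 27 alternatives run, 141 kept the call in each except the 1 log2 limit, and 13 lost it when an array was left out. All 32 genes chosen by class kept the call apart from that limit. Counts of list members moved by over 1.5 times in 105 of the 1296 comparisons, 52 of these without a change of threshold. In experiment 2, 112 probes passed by the labels and 711 without its 2 doubted AKR arrays, an alternative chosen after seeing the data. Probes near background understate responses, and probes over strain polymorphisms could not be removed.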
